A study of Mus musculus with 12 samples.

Results

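The 33 genes described here encode the factors of blood coagulation and of fibrinolysis, the breakdown of clots, together with their inhibitors and receptors. They were chosen by symbol from textbook membership of the pathway, with earlier results of these data known. All 33 were found among the 47069 genes in the deposited table of the study. RNA was sequenced from mice at postnatal day 14, that is 2 weeks of age, as 12 libraries in 4 groups of 3. The groups were isolated hepatocytes of wild-type (WT) mice, isolated hepatocytes of Cdk1 Liv-/- mice, and snap-frozen whole liver of each genotype. Cdk1 Liv-/- mice carry Cdk1 flox/flox with Albumin-Cre, so Cre acts in the hepatoblast and hepatocyte lineage. The alleles of the WT mice are not described further in the sources used here, and the methods of the study state that male mice alone were used. A whole liver library described below had the RNA pattern of a female instead. Values are FPKM, a count of fragments scaled to transcript length and library size, computed by the authors in each library and not normalized between libraries. Of the 33 members, 32 had a mean of at least 0.1 FPKM over the 12 libraries and were among the 17386 genes tested. The exception was Serpina5, the protein C inhibitor.

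The liver makes most clotting factors of the plasma, and hepatocytes secrete prothrombin, fibrinogen, antithrombin and plasminogen into the blood. Clotting starts when tissue factor meets factor VIIa, is amplified by the intrinsic factors, and ends with thrombin, which turns fibrinogen into fibrin.

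Depth was read from the steps between the lowest FPKM values, because the table holds no counts. An FPKM of 1 on 1 kb of transcript stood for 34.7 to 49.8 reads in the 12 libraries, and the FPKM of a library summed to between 649066 and 698265. Abundant members therefore rest on many reads, while F13a1 and Serpina5 rest on few in several libraries, as does Plat in WT hepatocytes (6 to 60 reads). Small differences in these members were not detectable at this depth. The lowest WT hepatocyte library held about 18 reads of Procr and 29 of Plaur, and the lowest Cdk1 Liv-/- hepatocyte library about 24 of Plau. Read numbers of members, here and below, are estimates from FPKM, the fitted depth and the longest annotated transcript, and are not counts. Cdk1 itself was at 27.9, 20.4 and 28.2 FPKM in WT and 9.68, 11.8 and 6.87 FPKM in Cdk1 Liv-/- hepatocytes. In whole liver Cdk1 was at 25.3, 22.7 and 21.5 FPKM in WT and 11.7, 12.1 and 14.2 FPKM in Cdk1 Liv-/- libraries. The genotypes did not overlap in either compartment, and the log2 fold change of Cdk1 was -1.40 (standard error, SE, 0.221, adjusted p = 0.0148) in hepatocytes and -0.85 (SE 0.0982, adjusted p = 0.00353) in whole liver. All fold changes here are on the scale of log2(FPKM + 0.5) and compare Cdk1 Liv-/- with WT unless stated. The p-values come from limma, adjusted by the Benjamini-Hochberg method over all tested genes, and genes with adjusted p values of 0.1 or less were called. They measure the spread between libraries. The labels do not say that each library is a separate animal, although the methods state at least 3 biological replicates.

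A pair of libraries stood apart. Whole liver Cdk1 Liv-/- replicate 3 had Xist at 158 FPKM and 4 Y-linked genes (Uty, Kdm5d, Ddx3y and Eif2s3y) at 0, whereas no other library had Xist above 0.14 FPKM or a sum of these Y-linked genes outside 48.4 to 62.1 FPKM. That is the pattern of a female sample, although the methods state that male mice alone were used. The whole liver Cdk1 Liv-/- group therefore mixes sexes by these genes. WT hepatocyte replicate 3 lay at -8.01 on the first principal component of all tested genes, between the other WT hepatocyte libraries (-74.1 and -75.6) and WT whole liver (8.91 to 27.9). The Cdk1 Liv-/- hepatocyte libraries lay between -86.9 and -59.2 on this axis, and Cdk1 Liv-/- whole liver between 91.96 and 132. That WT hepatocyte library also held more RNA of non-parenchymal cells. Its 8 sinusoidal endothelial markers summed to 255 FPKM against 134 and 89.3 in the other WT hepatocyte libraries, 2.29 times their mean. For 8 Kupffer cell and macrophage markers this factor was 2.40, for 8 stellate cell and fibroblast markers 2.26, for 8 megakaryocyte and platelet markers 3.66, and for 8 monocyte and neutrophil markers 3.66. It was 1.76 for 6 cholangiocyte markers, 4.12 for 7 erythroid markers and 2.37 for 7 B, T and NK cell markers, against 0.991 for 8 hepatocyte markers, which include albumin. The counts of called members over the whole list, and the ratios of marker sums below, are given with and without this pair. For the marker sums this was chosen after seeing the data. Member counts by role, by level, in both compartments and for vitamin K use are given with all libraries, except where stated.

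Hepatocyte markers were abundant in all 4 groups. Their sum was 77873, 85877 and 81095 FPKM in WT hepatocytes, 53683, 54940 and 51328 in hepatocytes of Cdk1 Liv-/- mice, 80374, 79038 and 81368 in WT whole liver, and 62812, 55255 and 61036 in whole liver of Cdk1 Liv-/- mice. The sum of the Cdk1 Liv-/- group was thus 0.653 times that of WT in hepatocytes (0.651 without WT replicate 3) and 0.744 times in whole liver (0.736 without Cdk1 Liv-/- replicate 3), with Alb as the most abundant gene. Of the 8 hepatocyte markers, 2 rose and 2 fell in hepatocytes (0 and 2 without that WT library), and none rose and 3 fell in whole liver.

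Members spanned a wide range of levels. In WT hepatocytes 7 members had a mean of at least 1000 FPKM, 9 lay between 100 and 1000, 6 between 10 and 100, and 11 under 10 FPKM. Serpinc1 was the most abundant member in both WT groups and Fga in both Cdk1 Liv-/- groups. Together the 33 genes summed to 14222 FPKM in the mean of WT hepatocytes, 13671 in hepatocytes of Cdk1 Liv-/- mice, 14143 in WT whole liver and 13531 in whole liver of Cdk1 Liv-/- mice, or 1.86% to 2.24% of all FPKM of a library. Some members are neighbours on the genome (GRCm38). Fgg, Fga and Fgb lie on chromosome 3 with gaps of 11.03 and 6.51 kb. On chromosome 8, F7, F10 and Proz follow each other with gaps of 1.499 and 4.24 kb. F11 lies 7.64 kb from the gene whose identifier is listed as Klkb1. In GENCODE M21 that identifier is Gm45753, as described below, so the gap to Klkb1 itself was not measured. Kng2 and Kng1, the kininogen genes of the mouse, lie 28.4 kb apart on chromosome 16 and are close to identical in sequence, so the split of reads between them is uncertain.

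Promoter windows of 300 bases, 250 before to 50 after the start of transcription, were available for 26 of the 33 members from RefSeq (GRCm38.p6). Kng1, Vwf, Proc, Thbd, Plg, Plat and Plau have no entry. The windows were searched on both strands for TTCNNNGAA (a motif of STAT factors), TTGCNNAA (C/EBP) and CAAAGTCC (HNF4), where N is any base. TTCNNNGAA was found in 4 members (F9, Fga, Fgb and Pros1), or 15.4%, and in 8.30% of all 32851 windows. TTGCNNAA was found in 11 members, or 42.3%, against 10.8% of all windows, and CAAAGTCC in none, against 1.42% of all windows. A match describes these letters in the window and shows neither a bound site nor a cause. Sequences are given for the members that the results turn on, each where its gene is described.

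In Cdk1 Liv-/- samples, abundant factors made by hepatocytes were mostly called lower or not called, and several weakly expressed members were called higher in whole liver. In isolated hepatocytes, 4 of the 32 tested members rose (F3, Pros1, Plat and Cpb2), where 12.1% of all tested genes rose, and 11 fell (F11, F8, F7, F10, F2, Serpinc1, Serpind1, Proc, Tfpi, Plau and Serpinf2), where 6.61% of all tested genes fell. The share that rose is near that of all genes, and the share that fell is above it. In whole liver, 8 members rose (Vwf, F3, F13a1, Pros1, Procr, Tfpi, Plat and Plaur), where 38.0% of all tested genes rose, and 12 fell (Klkb1, F11, F7, F10, F2, F13b, Serpinc1, Serpind1, Proc, Proz, Plg and Serpinf2), where 7.53% of all tested genes fell. There the share that rose is below that of all genes and the share that fell is above it. These shares of all genes also stand beside the counts by role and beside the counts of cell type markers over all libraries. The median log2 fold change of the members was -0.18 in hepatocytes and 0.01 in whole liver, beside 0.05 and 0.18 for all tested genes. In bulk samples like these, fewer cells of a type and less RNA per cell cannot be told apart.

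Scaling between libraries matters for whole liver. After division of FPKM by median-ratio size factors, the median of all genes moved from 0.18 to 0.01 in whole liver, and 17.9% of genes were called higher and 16.5% lower. Under this scaling 5 members were called higher and 16 lower in whole liver, and 3 higher and 11 lower in hepatocytes, where 9.80% of all genes were higher and 8.09% lower. For members called in whole liver the change there is therefore also given relative to the median of all genes without scaling. Leaving out WT hepatocyte replicate 3 left 2 members higher in hepatocytes (Pros1 and Plat) and 6 lower (F11, F7, F10, Proc, Plau and Serpinf2), beside 8.61% and 4.39% of all genes. Leaving out whole liver Cdk1 Liv-/- replicate 3 left 7 higher (without Pros1) and 11 lower (without F13b), beside 31.5% and 5.71% of all genes. Leaving out each hepatocyte library in turn gave between 1 and 3 members higher and between 3 and 7 lower in hepatocytes, where between 6.65% and 9.33% of all genes were higher and between 2.31% and 7.04% lower. Leaving out WT whole liver replicate 1 gave 5 members higher in whole liver, where 25.9% of all genes were. With the replicate number as a block, Pros1 and Plat stayed higher and F11, Proc and Serpinf2 lower in hepatocytes, beside 6.03% and 2.35% of all genes. In whole liver the block ended the calls of Serpinc1 and Tfpi and added F9 as lower. With no filter on low values F3, Plat, Cpb2, F8, Serpinc1, Serpind1, Tfpi and Plau were not called in hepatocytes, where Serpina5, then tested, was lower. The same setting ended the calls of Vwf, Pros1, Tfpi and Serpinc1 in whole liver.

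**Figure D1:**
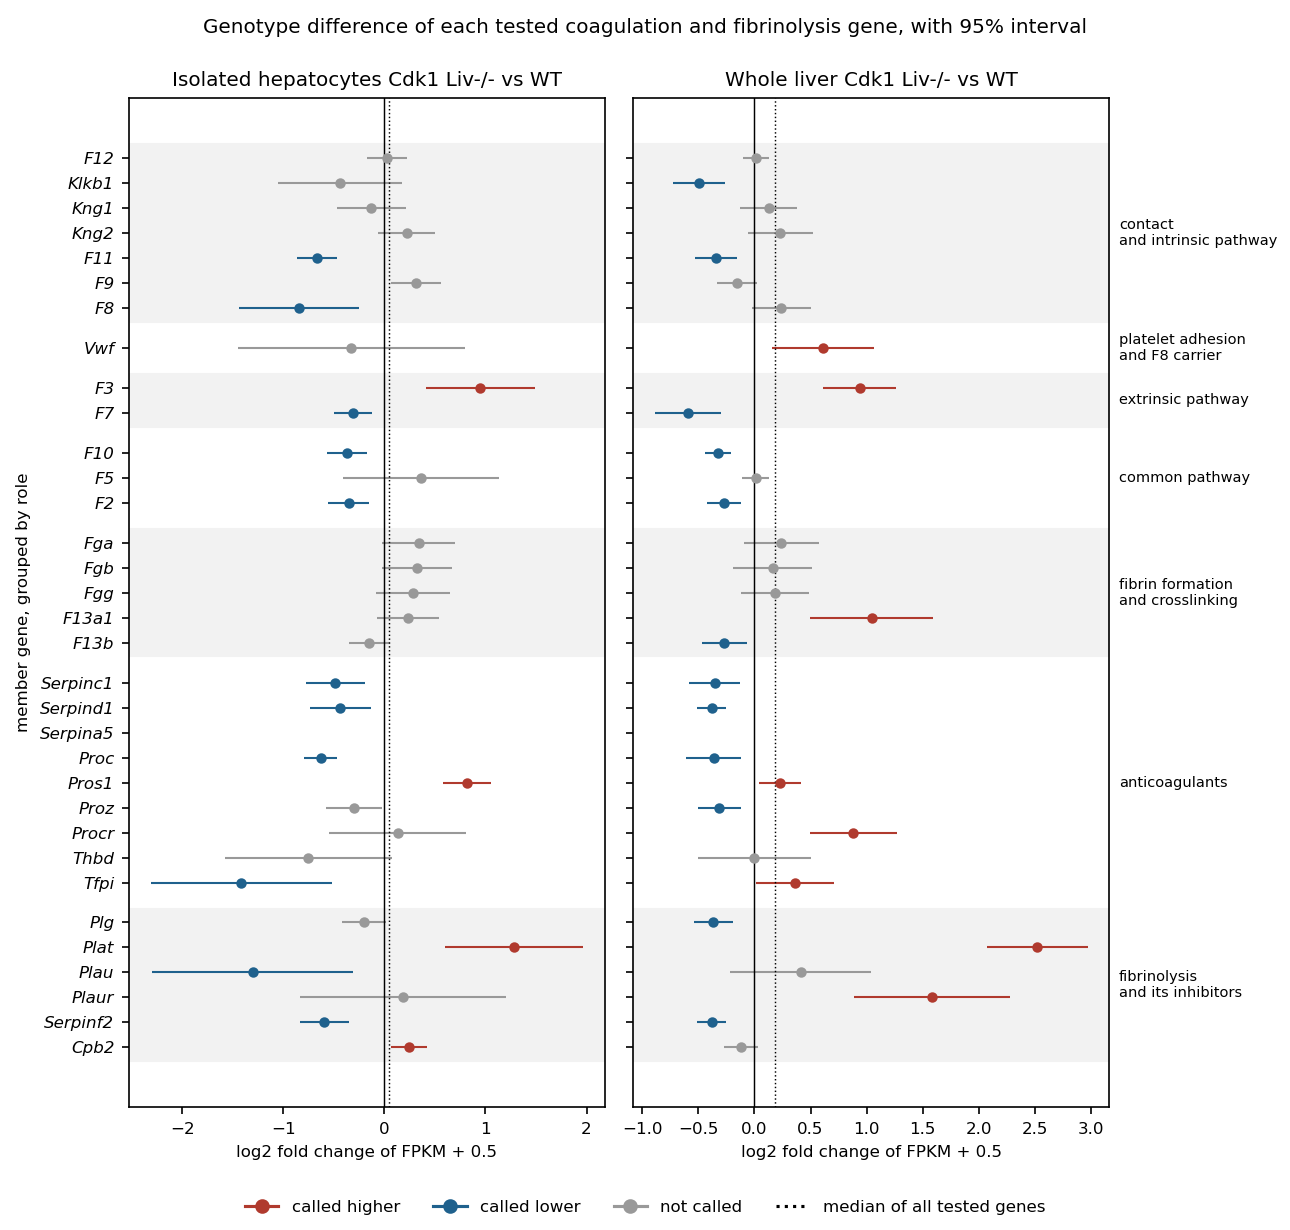
Points give the log2 fold change of FPKM + 0.5 (Cdk1 Liv-/- against WT) of the 32 tested members, grouped by role, with their 95% interval, in isolated hepatocytes and in whole liver, and the dotted line marks the median of all tested genes. Called members lie mostly below 0 among the abundant factors, and Plat, Plaur and F13a1 lie farthest above it in whole liver.

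The genotype comparisons in hepatocytes and in whole liver share no libraries. Between them 3 members were called higher in both (F3, Pros1 and Plat) and 8 lower in both (F11, F7, F10, F2, Serpinc1, Serpind1, Proc and Serpinf2). Of all tested genes, 9.27% were called higher in both and 2.51% lower in both, beside 9.38% and 25.0% of the members. Without Cdk1 Liv-/- hepatocyte replicate 3, or with the replicate block, only F11, Proc and Serpinf2 stayed lower in both. Under these settings Pros1 and Plat stayed higher in both, and F3 did not. Tfpi was called lower in hepatocytes and higher in whole liver, and 0.644% of all tested genes had calls in opposite directions. In neither comparison were 9 members called (F12, Kng1, Kng2, F9, F5, Fga, Fgb, Fgg and Thbd), though F12, F9 and F5 were called lower in whole liver with median-ratio size factors, and 25 of the 32 (78.1%) had fold changes of the same sign, as did 64.4% of all tested genes. Of the 22 members at 10 FPKM or more in WT hepatocytes, 2 rose and 8 fell in hepatocytes, where 11.5% of all tested genes at this level rose and 9.24% fell, and 1 rose and 12 fell in whole liver, where 39.4% rose and 14% fell. Of the 10 tested members under 10 FPKM, 2 rose and 3 fell in hepatocytes, where 12.3% of all tested genes at this level rose and 5.61% fell, and 7 rose and none fell in whole liver, where 37.5% rose and 5.09% fell. At an unadjusted p under 0.05, limma gave 17 members in hepatocytes, the 15 called ones with F9 and Proz, and 20 in whole liver, the same 20 that were called, beside 28.4% and 46.6% of all tested genes.

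The contact and intrinsic pathway comprises 7 members, of which none rose and 2 fell in hepatocytes (F11 and F8), and none rose and 2 fell in whole liver (Klkb1 and F11). F11 encodes factor XI, the protease that activates factor IX. F11 (ENSMUSG00000031645) was at 61.7, 66.4 and 60.6 FPKM in WT hepatocytes and 36.3, 42.1 and 40.05 FPKM in Cdk1 Liv-/- hepatocytes. In whole liver F11 was at 65.8, 55.7 and 58.8 FPKM in WT and 48.8, 45.2 and 47.5 FPKM in Cdk1 Liv-/-. Every Cdk1 Liv-/- library lay below every WT library of its compartment. F11 fell from 62.9 ± 3.08 to 39.5 ± 2.95 FPKM (SD, n = 3 each) in hepatocytes, a log2 fold change of -0.67 (SE 0.0826, adjusted p = 0.00688). The change in whole liver was -0.34 (SE 0.0747, adjusted p = 0.0197), or -0.52 relative to the median of all genes.

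F8 encodes factor VIII, the cofactor of factor IXa, which is made mainly by endothelial cells. F8 (ENSMUSG00000031196) was at 2.75, 1.60 and 3.28 FPKM in WT hepatocytes and 1.31, 1.01 and 1.14 FPKM in Cdk1 Liv-/- hepatocytes. In whole liver F8 was at 1.43, 1.61 and 1.89 FPKM in WT and 2.08, 2.15 and 1.85 FPKM in Cdk1 Liv-/-. The genotypes did not overlap in hepatocytes, where WT replicate 3 was highest, and overlapped in whole liver, where WT replicate 3 lay above Cdk1 Liv-/- replicate 3. F8 fell in hepatocytes with a log2 fold change of -0.84 (SE 0.246, adjusted p = 0.0829). The value in whole liver was 0.24 (adjusted p = 0.133) and was not called, except by the two-sample test (q = 0.0498) and without WT replicate 3 (adjusted p = 0.0829). For F8 the hepatocyte call ended without WT replicate 1 or 3 or Cdk1 Liv-/- replicate 1, 2 or 3 (adjusted p from 0.143 to 0.205, and from 0.0106 to 0.205 over all its alternatives), and the value without WT replicate 3 was -0.66.

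F9 encodes factor IX, the vitamin K dependent protease whose loss causes haemophilia B. F9 (ENSMUSG00000031138) was at 60.6, 60.4 and 54.4 FPKM in WT hepatocytes and 66.8, 69.4 and 82.8 FPKM in Cdk1 Liv-/- hepatocytes. In whole liver F9 was at 62.9, 56.6 and 56.9 FPKM in WT and 56.7, 49.7 and 51.5 FPKM in Cdk1 Liv-/-. The Cdk1 Liv-/- libraries were all above WT in hepatocytes, whereas in whole liver Cdk1 Liv-/- replicate 1 lay between the WT values and the other Cdk1 Liv-/- libraries below them. Neither difference was called (log2 fold change 0.31, adjusted p = 0.109, and -0.16, adjusted p = 0.140). The two-sample test called F9 higher in hepatocytes (q = 0.08785) and lower in whole liver (q = 0.0580). In hepatocytes 1 fit of all libraries called it too, and in whole liver so did median-ratio size factors (-0.38, adjusted p = 0.0285), the replicate block and the fit without Cdk1 Liv-/- replicate 1.

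Klkb1 encodes plasma prekallikrein, which contact activation turns into kallikrein. Its identifier, ENSMUSG00000031640, belongs in GENCODE M21 to Gm45753, a gene whose exons overlap both Klkb1 and Cyp4v3, so its values may hold reads of either gene. Klkb1 was at 40.8, 39.0 and 34.5 FPKM in WT whole liver and 29.7, 24.5 and 26.7 FPKM in Cdk1 Liv-/- whole liver. In hepatocytes Klkb1 was at 76.1, 50.8 and 43.9 FPKM in WT and 30.8, 47.4 and 46.2 FPKM in Cdk1 Liv-/-. The genotypes were separate in whole liver and overlapped in hepatocytes, where WT replicate 1 was highest and Cdk1 Liv-/- replicate 1 lowest. In whole liver Klkb1 fell with a log2 fold change of -0.49 (SE 0.0955, adjusted p = 0.0142), -0.67 relative to the median of all genes, and was not called in 1 fit of all libraries (adjusted p = 0.102). F12, Kng1 and Kng2 were not called in either compartment. With median-ratio size factors, however, F12 was called lower in whole liver (-0.21, adjusted p = 0.0257), and Kng2 was called higher there by the two-sample test (q = 0.0810) and in hepatocytes without Cdk1 Liv-/- replicate 2 (adjusted p = 0.0595). F12, factor XII, lay between 308 and 344.9 FPKM in the 12 libraries, Kng1 between 1121 and 1670.2 FPKM, and Kng2 between 180.4 and 277 FPKM.

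Vwf encodes von Willebrand factor, which tethers platelets and carries factor VIII, and is a product of endothelial cells and megakaryocytes. Vwf (ENSMUSG00000001930) was at 4.43, 4.10 and 3.85 FPKM in WT whole liver and 5.24, 8.81 and 6.10 FPKM in Cdk1 Liv-/- whole liver. In hepatocytes Vwf was at 0.74, 0.98 and 3.44 FPKM in WT and 1.42, 0.67 and 1.13 FPKM in Cdk1 Liv-/-. All Cdk1 Liv-/- whole liver libraries lay above WT, with replicate 2 highest, while the hepatocyte groups overlapped and WT replicate 3 exceeded all other hepatocyte libraries. Vwf rose in whole liver with a log2 fold change of 0.61 (SE 0.184, adjusted p = 0.0488), 0.43 relative to the median of all genes. The call ended without WT replicate 1, 2 or 3 (adjusted p from 0.105 to 0.129, and from 0.0321 to 0.254 over all its alternatives), with median-ratio size factors (0.41, adjusted p = 0.142) and in 1 fit of all libraries (adjusted p = 0.254). In hepatocytes the value was -0.33 (adjusted p = 0.684), and 0.19 (adjusted p = 0.703) without WT replicate 3, so its sign turns with that library. The megakaryocyte and platelet markers, with Pf4 as the most abundant gene, summed to 14.9, 12.0 and 17.1 FPKM in WT whole liver and 13.4, 16.4 and 17.5 FPKM in Cdk1 Liv-/- whole liver, 1.08 times WT (1.02 without Cdk1 Liv-/- replicate 3), and 1 of the 7 tested rose there. In hepatocytes they summed to 8.42, 8.31 and 30.6 FPKM in WT and 9.83, 4.81 and 5.75 FPKM in Cdk1 Liv-/-, 0.431 times WT (0.813 without WT replicate 3), and none of 7 was called by limma. None of the 8 was at 0 in a whole group, and their part in the result was not tested.

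The extrinsic pathway comprises F3 and F7, which moved in opposite directions in both compartments. F3 encodes tissue factor, the membrane receptor that starts clotting. F3 (ENSMUSG00000028128) was at 1.54, 1.28 and 0.98 FPKM in WT hepatocytes and 2.15, 3.02 and 3.65 FPKM in Cdk1 Liv-/- hepatocytes. In whole liver F3 was at 2.09, 2.23 and 1.68 FPKM in WT and 3.70, 4.88 and 4.29 FPKM in Cdk1 Liv-/-. Both Cdk1 Liv-/- groups lay wholly above their WT group. F3 rose with a log2 fold change of 0.95 (SE 0.223, adjusted p = 0.0479) in hepatocytes and 0.94 (SE 0.132, adjusted p = 0.00596) in whole liver, the latter 0.76 relative to the median of all genes. For F3 the hepatocyte call ended without WT replicate 2 or 3 or Cdk1 Liv-/- replicate 2 or 3 (adjusted p from 0.104 to 0.126, and from 0.00458 to 0.152 over all its alternatives). F7 encodes factor VII, the protease that tissue factor binds. F7 (ENSMUSG00000031443) was at 54.7, 57.0 and 51.7 FPKM in WT hepatocytes and 46.7, 41.0 and 44.0 FPKM in Cdk1 Liv-/- hepatocytes. In whole liver F7 was at 59.3, 58.5 and 51.5 FPKM in WT and 42.8, 31.9 and 37.6 FPKM in Cdk1 Liv-/-. No Cdk1 Liv-/- library reached the lowest WT value of its compartment. F7 fell with a log2 fold change of -0.31 (SE 0.0790, adjusted p = 0.0589) in hepatocytes and -0.59 (SE 0.119, adjusted p = 0.0157) in whole liver, the latter -0.77 relative to the median and the lowest of the 32 members. For F7 the hepatocyte call ended without WT replicate 1 or 2 or Cdk1 Liv-/- replicate 2 or 3 (adjusted p from 0.118 to 0.155, and from 0.0449 to 0.158 over all its alternatives).

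The common pathway comprises F10, F5 and F2, of which F10 and F2 fell in both compartments. F2 encodes prothrombin, the precursor of thrombin. F2 (ENSMUSG00000027249) was at 1084, 1133 and 1129 FPKM in WT hepatocytes and 856, 885 and 882 FPKM in Cdk1 Liv-/- hepatocytes. In whole liver F2 was at 1106, 1075 and 1117 FPKM in WT and 889.8, 934 and 909 FPKM in Cdk1 Liv-/-. None of the 6 Cdk1 Liv-/- libraries reached the lowest of the 6 WT libraries. The mean fell from 1116 ± 27.3 to 874 ± 16.1 FPKM in hepatocytes and from 1100.0 ± 21.8 to 911 ± 22.1 FPKM in whole liver (SD, n = 3 each). The log2 fold change of F2 was -0.35 (SE 0.0846, adjusted p = 0.0510) in hepatocytes and -0.27 (SE 0.0611, adjusted p = 0.0215) in whole liver, -0.45 relative to the median. For F2 the hepatocyte call ended without WT replicate 1, 2 or 3 or Cdk1 Liv-/- replicate 1 or 3 (adjusted p from 0.103 to 0.143, and from 0.00365 to 0.176 over all its alternatives). F10 encodes factor X, whose active form cleaves prothrombin. F10 lay between 323 and 355 FPKM in WT and 251 and 281 FPKM in Cdk1 Liv-/- hepatocytes, and between 359 and 368 FPKM in WT and 287 and 295 FPKM in Cdk1 Liv-/- whole liver. The groups did not overlap, and the log2 fold change of F10 was -0.37 (adjusted p = 0.0391) in hepatocytes and -0.33 (adjusted p = 0.00620) in whole liver, -0.51 relative to the median. For F10 the hepatocyte call ended without WT replicate 2 or Cdk1 Liv-/- replicate 3 (adjusted p from 0.106 to 0.114, and from 0.00255 to 0.117 over all its alternatives). F5, the cofactor of factor Xa, was not called without scaling. It lay between 60.4 and 126 FPKM over the hepatocyte libraries, where WT replicate 1 and Cdk1 Liv-/- replicates 2 and 3 were high, and between 59.6 and 64.7 FPKM over the whole liver libraries.

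**Figure D2:**
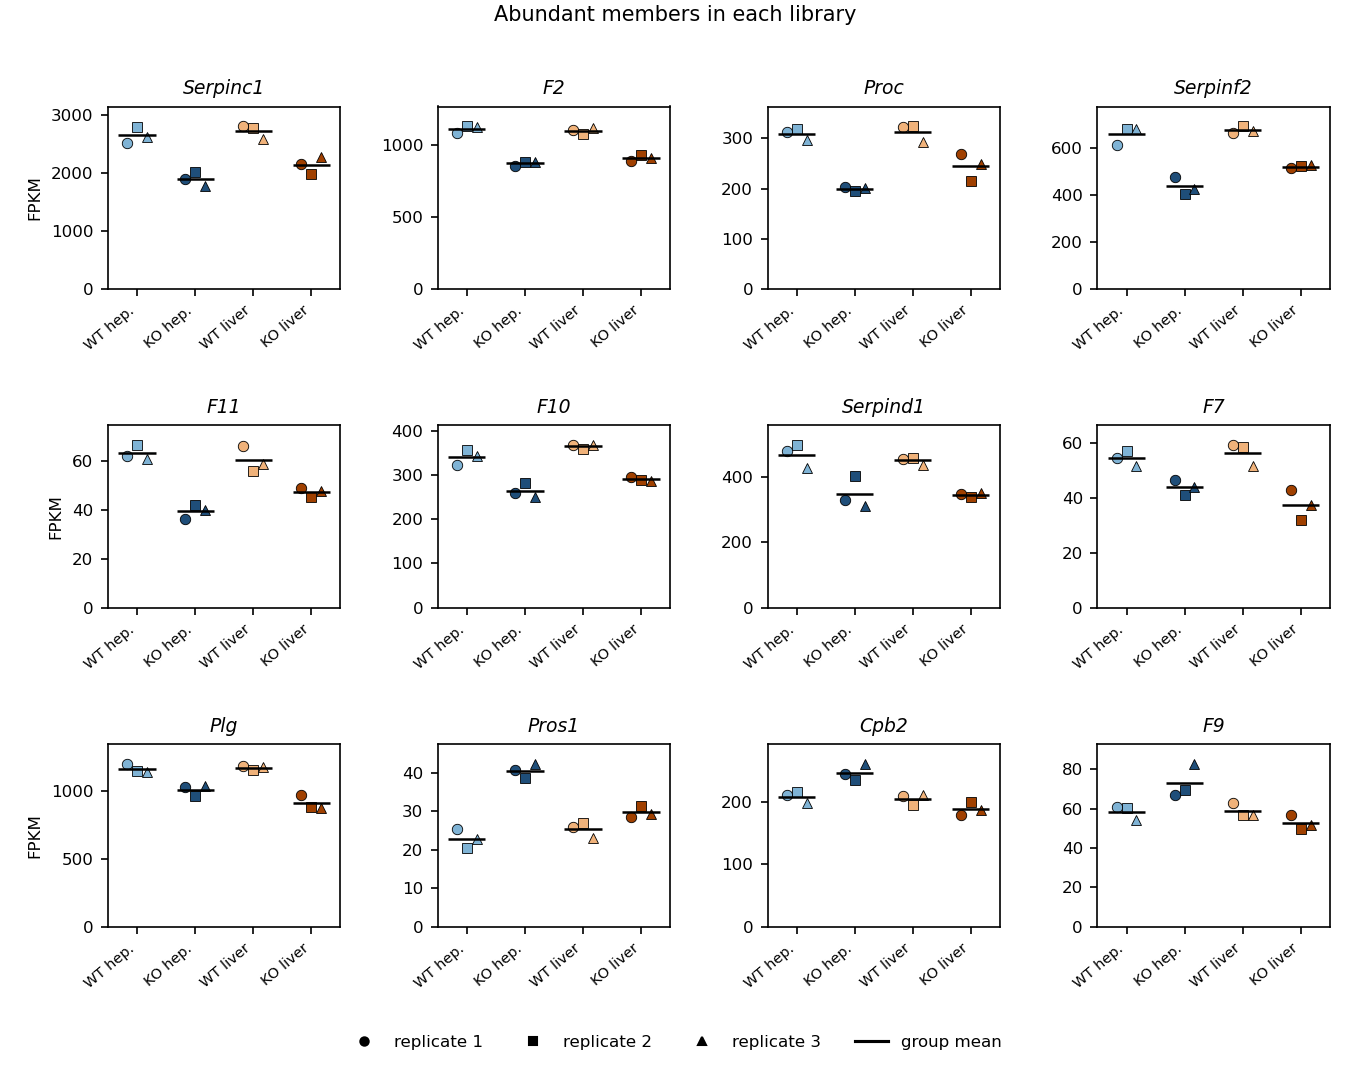
Each panel gives the FPKM of 1 abundant member in the 12 libraries (WT hep. and KO hep., WT and Cdk1 Liv-/- hepatocytes; WT liver and KO liver, whole liver), with replicates as symbols and the group mean as a line. For Serpinc1, F2, Proc, Serpinf2, F11, F10, Serpind1, F7 and Plg all Cdk1 Liv-/- libraries lie below the WT libraries of the same compartment, and Pros1 lies above WT.

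Fibrin formation and crosslinking comprises 5 members, of which limma called none in hepatocytes, also at an unadjusted p under 0.05, and F13a1 rose and F13b fell in whole liver. The 3 fibrinogen chains are encoded by Fga, Fgb and Fgg, which hepatocytes transcribe from 1 cluster and raise together in an acute phase response. Fga (ENSMUSG00000028001) was at 1928, 2019 and 1971 FPKM in WT hepatocytes and 2489, 2134 and 2929 FPKM in Cdk1 Liv-/- hepatocytes. In whole liver Fga was at 1917, 1991 and 2121 FPKM in WT and 2315, 2812 and 2049 FPKM in Cdk1 Liv-/-. The Cdk1 Liv-/- hepatocyte libraries were all above WT, and in whole liver Cdk1 Liv-/- replicate 3 fell within the WT range while replicate 2 was highest. Fgb (ENSMUSG00000033831) was at 1077, 991 and 967 FPKM in WT hepatocytes and 1231, 1094 and 1502 FPKM in Cdk1 Liv-/- hepatocytes. In whole liver Fgb was at 934, 978 and 1039.6 FPKM in WT and 1055, 1343 and 939 FPKM in Cdk1 Liv-/-. It was above WT in every Cdk1 Liv-/- hepatocyte library and overlapped with WT in whole liver. Fgg (ENSMUSG00000033860) was at 1866, 1706 and 1712 FPKM in WT hepatocytes and 2127, 1822 and 2531 FPKM in Cdk1 Liv-/- hepatocytes. In whole liver Fgg was at 1658, 1686 and 1799.6 FPKM in WT and 1888, 2270.3 and 1711 FPKM in Cdk1 Liv-/-. Both compartments overlapped between genotypes for Fgg.

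None of the 3 chains was called in either compartment by limma. The log2 fold change in hepatocytes was 0.34 for Fga (SE 0.150, adjusted p = 0.198), 0.32 for Fgb (SE 0.141, adjusted p = 0.195) and 0.28 for Fgg (SE 0.152, adjusted p = 0.278). In whole liver it was 0.24 for Fga (adjusted p = 0.214), 0.16 for Fgb (adjusted p = 0.411) and 0.18 for Fgg (adjusted p = 0.293), and with median-ratio size factors, which lower whole liver values of Cdk1 Liv-/- against WT, it was 0.02 (adjusted p = 0.938), -0.06 and -0.04. The two-sample test called Fga in whole liver (q = 0.0809). The sum of the chains was 4745 ± 113 FPKM in WT hepatocytes, 5953 ± 961 in hepatocytes of Cdk1 Liv-/- mice, 4708 ± 230.1 in WT whole liver and 5461 ± 881 in whole liver of Cdk1 Liv-/- mice (SD, n = 3 each), so the spread was wider in both Cdk1 Liv-/- groups. Between libraries the chains kept narrow ratios, with Fga over Fgb from 1.79 to 2.20, Fga over Fgg from 1.03 to 1.24 and Fgg over Fgb from 1.67 to 1.82.

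The promoter windows of the fibrinogen cluster are shown because the chains varied together in the Cdk1 Liv-/- libraries while their windows differ in these motifs. Capitals mark, in Fga and Fgb, from left to right, TTCNNNGAA and TTGCNNAA, the latter on the opposite strand in Fga. No match overlaps another one in these windows. The windows of Fga and Fgb hold these 2 motifs, as do 337 of all 32851 windows (1.03%). That of Fgg holds none of the 3, which is also so for 80.8% of all windows and for 14 of the 26 members with a window. The regions are chr3:83025903-83026202 (plus strand) for Fga, chr3:83049814-83050113 (minus strand) for Fgb and chr3:83007474-83007773 (plus strand) for Fgg.
Fga: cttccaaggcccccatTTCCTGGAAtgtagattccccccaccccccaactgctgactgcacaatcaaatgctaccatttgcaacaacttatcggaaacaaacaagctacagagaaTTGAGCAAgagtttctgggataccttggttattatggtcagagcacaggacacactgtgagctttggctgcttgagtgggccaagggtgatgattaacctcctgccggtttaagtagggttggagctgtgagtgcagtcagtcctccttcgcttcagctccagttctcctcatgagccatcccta
Fgb: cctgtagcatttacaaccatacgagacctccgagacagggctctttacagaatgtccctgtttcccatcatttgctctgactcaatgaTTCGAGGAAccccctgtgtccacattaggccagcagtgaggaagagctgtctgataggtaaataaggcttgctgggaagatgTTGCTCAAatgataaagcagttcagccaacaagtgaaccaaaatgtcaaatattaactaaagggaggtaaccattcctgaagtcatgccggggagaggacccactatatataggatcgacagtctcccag
Fgg: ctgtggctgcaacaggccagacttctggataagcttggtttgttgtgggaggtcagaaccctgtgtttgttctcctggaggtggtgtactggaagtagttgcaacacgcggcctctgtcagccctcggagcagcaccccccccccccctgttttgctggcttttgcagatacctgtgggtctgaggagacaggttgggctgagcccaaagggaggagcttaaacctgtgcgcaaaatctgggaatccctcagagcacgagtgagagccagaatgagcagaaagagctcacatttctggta

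**Figure D3:**
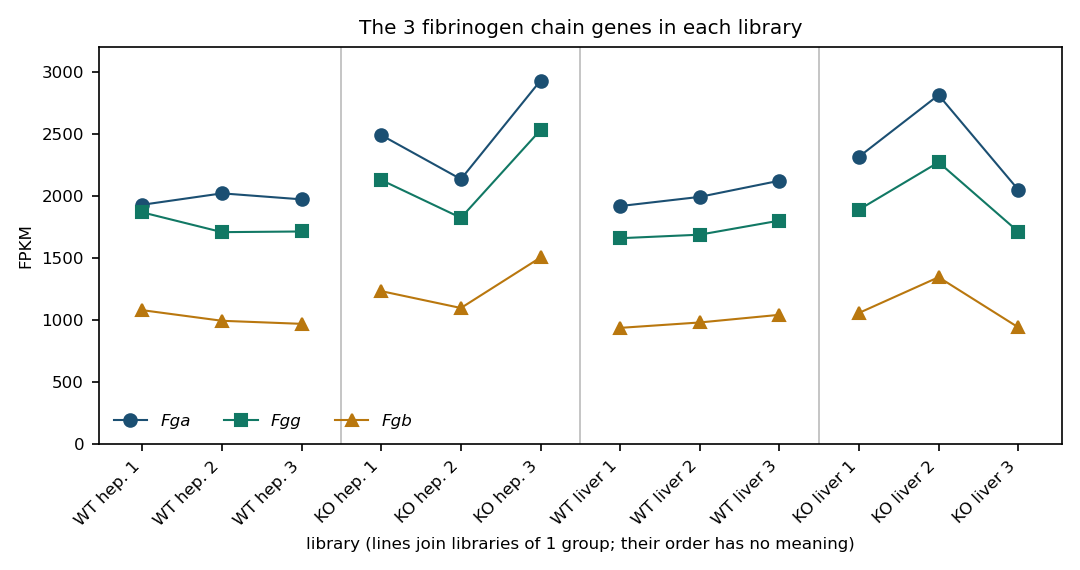
FPKM of Fga, Fgg and Fgb in each of the 12 libraries (KO, Cdk1 Liv-/-), with lines joining the libraries of 1 group. In the Cdk1 Liv-/- groups the 3 chains vary together, highest in hepatocyte replicate 3 and in whole liver replicate 2, while in WT hepatocyte replicate 1 Fga is low and Fgb and Fgg are high for WT.

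Factor XIII crosslinks fibrin, with a catalytic A subunit made by macrophages and megakaryocytes and a carrier B subunit made by hepatocytes. F13a1 (ENSMUSG00000039109), which encodes the A subunit, was at 0.15, 0.07 and 0.15 FPKM in WT whole liver and 0.53, 1.31 and 0.63 FPKM in Cdk1 Liv-/- whole liver, or 11 to 25 and 98 to 240 reads. In hepatocytes F13a1 was at 0.07, 0.02 and 0.09 FPKM in WT and 0.14, 0.08 and 0.27 FPKM in Cdk1 Liv-/-, or 3 to 16 and 12 to 36 reads. The whole liver groups were separate, with Cdk1 Liv-/- replicate 2 highest, and the hepatocyte groups overlapped. F13a1 rose in whole liver with a log2 fold change of 1.04 (SE 0.223, adjusted p = 0.0187), 0.86 relative to the median of all genes. At these levels the value depends on the pseudocount, at 1.98 with 0.1 and 0.675 with 1, and the ratio of mean FPKM was 6.68. In hepatocytes its value was 0.24 (adjusted p = 0.272). Exons of F13a1 overlap Gm30489 on the other strand, and whether its values hold reads of that gene was not tested. F13b, the B subunit, lay between 120 and 133 FPKM in WT whole liver and 95.7 and 114 FPKM in Cdk1 Liv-/- whole liver, without overlap. F13b fell there (log2 fold change -0.27, adjusted p = 0.0508, and -0.45 relative to the median), and the call ended without WT replicate 1 or 2 or Cdk1 Liv-/- replicate 3 (adjusted p from 0.106 to 0.153, and from 0.0165 to 0.153 over all its alternatives). The Kupffer cell and macrophage markers, with Cd5l as the most abundant gene, summed to 307, 348.5 and 359 FPKM in WT whole liver and 421, 604 and 462 FPKM in Cdk1 Liv-/- whole liver, 1.47 times WT (1.51 without Cdk1 Liv-/- replicate 3). Of these markers 3 of 8 rose there, where 38.0% of all tested genes did. In hepatocytes they summed to 232, 123 and 427 FPKM in WT and 146, 114 and 94.0 FPKM in Cdk1 Liv-/-, 0.453 times WT, and 1 of 8 fell, or 0.664 times and none without WT replicate 3. The monocyte and neutrophil markers, with S100a9 as the most abundant gene, summed to 70.3, 43.8 and 66.7 FPKM in WT whole liver and 89.9, 302 and 243 FPKM in Cdk1 Liv-/- whole liver, 3.51 times WT, and 6 of 8 rose, or 3.25 times and 3 without Cdk1 Liv-/- replicate 3. Their sums in hepatocytes were 14.3, 12.1 and 48.4 FPKM in WT and 21.1, 10.97 and 19.9 FPKM in Cdk1 Liv-/-, 0.694 times WT, and 1 of 8 rose. Without WT replicate 3 this ratio was 1.31, so its direction turns with that library. None of these markers was at 0 in a whole group, and their part in the F13a1 result was not tested.

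The anticoagulants comprise 9 members, 8 of them tested, of which 1 rose and 4 fell in hepatocytes, and 3 rose and 4 fell in whole liver. Serpinc1 encodes antithrombin, the main plasma inhibitor of thrombin and factor Xa. Serpinc1 (ENSMUSG00000026715) was at 2526, 2801 and 2629 FPKM in WT hepatocytes and 1895, 2024 and 1775 FPKM in Cdk1 Liv-/- hepatocytes. In whole liver Serpinc1 was at 2811, 2772 and 2591 FPKM in WT and 2158, 1979.8 and 2270.0 FPKM in Cdk1 Liv-/-. The lowest WT value exceeded every Cdk1 Liv-/- value. The mean fell from 2652 ± 139 to 1898 ± 124 FPKM in hepatocytes and from 2725 ± 117 to 2136 ± 146 FPKM in whole liver (SD, n = 3 each). The log2 fold change of Serpinc1 was -0.48 (SE 0.119, adjusted p = 0.0548) in hepatocytes and -0.35 (SE 0.0923, adjusted p = 0.0330) in whole liver, -0.53 relative to the median. For Serpinc1 the hepatocyte call ended without WT replicate 1, 2 or 3 or Cdk1 Liv-/- replicate 1 or 3 (adjusted p from 0.105 to 0.159, and from 0.00494 to 0.173 over all its alternatives), and the whole liver call without WT replicate 1 or 2 (adjusted p from 0.109 to 0.124, and from 0.0112 to 0.124 over all its alternatives). Both also ended with no filter on low values (adjusted p = 0.131 and 0.119) and with the replicate block (adjusted p = 0.173 and 0.1135). Serpind1 encodes heparin cofactor II, another inhibitor of thrombin. Serpind1 (ENSMUSG00000022766) was at 477, 497 and 425 FPKM in WT hepatocytes and 328, 401 and 311 FPKM in Cdk1 Liv-/- hepatocytes. In whole liver Serpind1 was at 455, 458 and 436 FPKM in WT and 348, 338 and 349.8 FPKM in Cdk1 Liv-/-. Its genotypes did not overlap in either compartment. Serpind1 fell with a log2 fold change of -0.43 (SE 0.123, adjusted p = 0.0773) in hepatocytes and -0.38 (SE 0.0517, adjusted p = 0.00540) in whole liver, -0.56 relative to the median. For Serpind1 the hepatocyte call ended without WT replicate 1, 2 or 3 or Cdk1 Liv-/- replicate 1 or 3 (adjusted p from 0.103 to 0.193, and from 0.00893 to 0.193 over all its alternatives), and also with equal sums (adjusted p = 0.109).

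Activated protein C, with its cofactor protein S, inactivates factors Va and VIIIa. Proc (ENSMUSG00000024386), the gene of protein C, was at 312, 318 and 297 FPKM in WT hepatocytes and 203, 195 and 201 FPKM in Cdk1 Liv-/- hepatocytes. In whole liver Proc was at 323, 325 and 293 FPKM in WT and 269, 214 and 249.6 FPKM in Cdk1 Liv-/-. The genotypes were separate in both compartments. Proc fell with a log2 fold change of -0.63 (SE 0.0671, adjusted p = 0.00470) in hepatocytes and -0.36 (SE 0.0993, adjusted p = 0.0373) in whole liver, -0.54 relative to the median. The whole liver call ended without WT replicate 1 or 2 (adjusted p from 0.109 to 0.118, and from 0.0118 to 0.118 over all its alternatives). Pros1, the gene of protein S, went the other way. Pros1 (ENSMUSG00000022912) was at 25.4, 20.5 and 22.7 FPKM in WT hepatocytes and 40.6, 38.6 and 42.3 FPKM in Cdk1 Liv-/- hepatocytes. In whole liver Pros1 was at 25.8, 27.04 and 23.1 FPKM in WT and 28.5, 31.4 and 29.3 FPKM in Cdk1 Liv-/-. Every Cdk1 Liv-/- library lay above the WT libraries of its compartment, by a wide margin in hepatocytes and a narrow one in whole liver. In hepatocytes the mean of Pros1 went from 22.9 ± 2.44 up to 40.5 ± 1.86 FPKM (SD, n = 3 each), with a log2 fold change of 0.82 (SE 0.0972, adjusted p = 0.00641). The change in whole liver was 0.23 (SE 0.0752, adjusted p = 0.0634), or 0.05 relative to the median of all genes. This call ended without WT replicate 1 or 3 or Cdk1 Liv-/- replicate 2 or 3 (adjusted p from 0.124 to 0.141, and from 0.0325 to 0.924 over all its alternatives), and with median-ratio size factors (0.01, adjusted p = 0.924).

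The promoter windows of Pros1 (chr16:62854057-62854356, plus strand) and Serpinc1 (chr1:160978333-160978632, plus strand) are shown because these anticoagulants moved in opposite directions. Capitals mark TTCNNNGAA in Pros1, 92 bases before the start, and TTGCNNAA in Serpinc1, just after the start. Neither window holds another of the 3 motifs. TTGCNNAA was also found in Cpb2, which rose in hepatocytes, and in F11, which fell there. TTCNNNGAA was also found in F9, Fga and Fgb, which limma called in neither compartment. Whether a motif goes with a direction was not tested.
Pros1: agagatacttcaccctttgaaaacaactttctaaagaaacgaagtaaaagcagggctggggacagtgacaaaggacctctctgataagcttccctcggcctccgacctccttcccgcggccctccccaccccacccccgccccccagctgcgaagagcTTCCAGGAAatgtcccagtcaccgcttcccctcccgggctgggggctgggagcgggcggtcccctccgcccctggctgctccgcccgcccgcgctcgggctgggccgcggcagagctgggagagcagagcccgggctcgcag
Serpinc1: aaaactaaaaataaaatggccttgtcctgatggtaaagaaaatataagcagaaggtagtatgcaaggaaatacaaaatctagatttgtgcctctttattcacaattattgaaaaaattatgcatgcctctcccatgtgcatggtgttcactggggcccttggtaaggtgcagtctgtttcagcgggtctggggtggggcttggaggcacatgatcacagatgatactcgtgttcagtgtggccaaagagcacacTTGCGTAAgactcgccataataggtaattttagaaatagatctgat

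Tfpi encodes tissue factor pathway inhibitor, which blocks factor Xa and the complex of tissue factor with factor VIIa and is made largely by endothelial cells. Tfpi (ENSMUSG00000027082) was at 7.49, 5.72 and 14.3 FPKM in WT hepatocytes and 4.25, 2.25 and 2.47 FPKM in Cdk1 Liv-/- hepatocytes. In whole liver Tfpi was at 8.39, 9.40 and 10.8 FPKM in WT and 11.9, 14.6 and 10.7 FPKM in Cdk1 Liv-/-. The hepatocyte groups were separate, with WT replicate 3 far above the others, and the whole liver groups overlapped by a narrow margin. Tfpi fell in hepatocytes with a log2 fold change of -1.42 (SE 0.370, adjusted p = 0.0629). It rose in whole liver with a value of 0.36 (SE 0.141, adjusted p = 0.0977), or 0.18 relative to the median, a call close to the threshold that ended without WT replicate 1 or 2 or Cdk1 Liv-/- replicate 1 or 2 (adjusted p from 0.154 to 0.253, and from 0.0539 to 0.480 over all its alternatives), in 1 fit of all libraries (adjusted p = 0.401) and with median-ratio size factors (0.15, adjusted p = 0.480). For Tfpi the hepatocyte call ended without WT replicate 1 or 3 or Cdk1 Liv-/- replicate 2 or 3 (adjusted p from 0.104 to 0.168, and from 0.00659 to 0.168 over all its alternatives), and the value without WT replicate 3 was -1.06.

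Procr encodes the endothelial receptor that presents protein C to its activating complex. Procr (ENSMUSG00000027611) was at 1.35, 1.46 and 1.08 FPKM in WT whole liver and 2.79, 3.44 and 2.26 FPKM in Cdk1 Liv-/- whole liver. In hepatocytes Procr was at 0.61, 0.3 and 1.19 FPKM in WT and 0.74, 0.66 and 0.87 FPKM in Cdk1 Liv-/-. Whole liver was separate between genotypes, and in hepatocytes the Cdk1 Liv-/- values lay within the WT range, which WT replicate 3 alone extends above them. Procr rose in whole liver with a log2 fold change of 0.88 (SE 0.158, adjusted p = 0.0114), 0.70 relative to the median. Its hepatocyte value was 0.13 (adjusted p = 0.794), and 0.41 (adjusted p = 0.257) without that library. Thbd encodes thrombomodulin, which turns thrombin toward protein C. Thbd lay between 2.02 and 4.94 FPKM in WT and 1.25 and 2.14 FPKM in Cdk1 Liv-/- hepatocytes, and between 2.74 and 4.63 FPKM over all whole liver libraries. It was not called (adjusted p = 0.208 in hepatocytes, and 0.366 without WT replicate 3), except as lower in hepatocytes in 1 fit of all libraries (adjusted p = 0.0897). Proz encodes protein Z, the cofactor of an inhibitor of factor Xa. Proz lay between 118 and 127 FPKM in WT whole liver and 90.9 and 109 FPKM in Cdk1 Liv-/- whole liver, without overlap, and fell there (log2 fold change -0.31, adjusted p = 0.0285, and -0.49 relative to the median). In hepatocytes Proz had a value of -0.30 (adjusted p = 0.154), called lower in 1 fit of all libraries (adjusted p = 0.0588). Serpina5 was at 0.11 to 0.2 FPKM in WT hepatocytes, listed at 0, 0 and 0.01 FPKM in Cdk1 Liv-/- hepatocytes, and at 0.02 to 0.11 FPKM over whole liver, at most 16 reads in any library.

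The sinusoidal endothelial markers, with Stab1 as the most abundant gene, summed to 134, 89.3 and 255 FPKM in WT hepatocytes and 62.6, 39.9 and 47.1 FPKM in Cdk1 Liv-/- hepatocytes, 0.313 times WT, and 7 of 8 fell, or 0.447 times and 6 of 8 without WT replicate 3. In whole liver they summed to 129, 149 and 180.4 FPKM in WT and 158, 204.5 and 161 FPKM in Cdk1 Liv-/-, 1.14 times WT, and 1 of 8 rose, or 1.18 times and none without Cdk1 Liv-/- replicate 3. No marker of this list was at 0 in a whole group, and their part in the results for F8, Tfpi, Procr, Thbd and Vwf was not tested.

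Fibrinolysis comprises 6 members, of which 2 rose and 2 fell in each compartment. Plg encodes plasminogen, the precursor of plasmin. Plg (ENSMUSG00000059481) was at 1202, 1150.1 and 1142 FPKM in WT hepatocytes and 1031, 967 and 1037 FPKM in Cdk1 Liv-/- hepatocytes. In whole liver Plg was at 1189, 1154 and 1179 FPKM in WT and 974, 885 and 876 FPKM in Cdk1 Liv-/-. The genotypes did not overlap in either compartment. Plg fell in whole liver with a log2 fold change of -0.37 (SE 0.0710, adjusted p = 0.0144), -0.55 relative to the median. The hepatocyte value was -0.20 (SE 0.0901, adjusted p = 0.199) and was not called by limma, while the two-sample test (q = 0.0375) and 1 fit of all libraries (adjusted p = 0.0706) called it. Serpinf2 encodes alpha-2-antiplasmin, the fast inhibitor of plasmin. Serpinf2 (ENSMUSG00000038224) was at 611, 678 and 679 FPKM in WT hepatocytes and 477, 404 and 424 FPKM in Cdk1 Liv-/- hepatocytes. In whole liver Serpinf2 was at 664, 692 and 672 FPKM in WT and 515, 519.8 and 525 FPKM in Cdk1 Liv-/-. None of the 6 Cdk1 Liv-/- libraries reached the lowest of the 6 WT libraries. Serpinf2 fell with a log2 fold change of -0.59 (SE 0.0991, adjusted p = 0.0175) in hepatocytes and -0.38 (SE 0.0529, adjusted p = 0.00584) in whole liver, -0.56 relative to the median. Cpb2 encodes the carboxypeptidase TAFI, which protects fibrin from plasmin. Cpb2 (ENSMUSG00000021999) was at 210.3, 215 and 198 FPKM in WT hepatocytes and 244, 235 and 260.3 FPKM in Cdk1 Liv-/- hepatocytes. In whole liver Cpb2 was at 209, 194 and 209.9 FPKM in WT and 178, 199 and 187 FPKM in Cdk1 Liv-/-. It was above WT in all Cdk1 Liv-/- hepatocyte libraries and overlapped with WT in whole liver. Cpb2 rose in hepatocytes with a log2 fold change of 0.24 (SE 0.0752, adjusted p = 0.0945), but the call ended without WT replicate 1, 2 or 3 or Cdk1 Liv-/- replicate 1, 2 or 3 (adjusted p from 0.103 to 0.209, and from 0.0274 to 0.314 over all its alternatives), and with median-ratio size factors (0.17, adjusted p = 0.314). In whole liver its value was -0.12 (adjusted p = 0.184), and it was called lower there with median-ratio size factors (-0.34, adjusted p = 0.0187), by the two-sample test (q = 0.05895) and without Cdk1 Liv-/- replicate 2 (adjusted p = 0.0928).

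Plat encodes tissue plasminogen activator and had the highest fold change of the members in both compartments. Plat (ENSMUSG00000031538) was at 0.03, 0.05 and 0.32 FPKM in WT hepatocytes and 0.85, 0.68 and 1.66 FPKM in Cdk1 Liv-/- hepatocytes, or 6 to 60 and 107 to 228 reads. In whole liver Plat was at 0.34, 0.32 and 0.58 FPKM in WT and 3.99, 5.99 and 4.33 FPKM in Cdk1 Liv-/-, or 53 to 100 and 755 to 1125 reads. Each Cdk1 Liv-/- library lay above all WT libraries of its compartment, and replicate 3 was the highest of the WT libraries in both. Plat rose with a log2 fold change of 1.28 (SE 0.283, adjusted p = 0.0400) in hepatocytes and 2.52 (SE 0.182, adjusted p = 0.000881) in whole liver, 2.34 relative to the median. For Plat the hepatocyte call ended without WT replicate 1 or 2 (adjusted p from 0.102 to 0.129, and from 0.00492 to 0.129 over all its alternatives). Its hepatocyte value was 2.44 with a pseudocount of 0.1 and 0.845 with 1, and the ratio of mean FPKM was 7.98. Plau encodes urokinase, the other plasminogen activator. Plau (ENSMUSG00000021822) was at 1.17, 0.72 and 3.33 FPKM in WT hepatocytes and 0.26, 0.33 and 0.33 FPKM in Cdk1 Liv-/- hepatocytes. In whole liver Plau was at 1.75, 1.91 and 2.96 FPKM in WT and 3.15, 4.08 and 2.14 FPKM in Cdk1 Liv-/-. The hepatocyte groups were separate, with WT replicate 3 highest, and the whole liver groups overlapped. Plau fell in hepatocytes with a log2 fold change of -1.30 (SE 0.410, adjusted p = 0.0991), and the call ended without WT replicate 1 or Cdk1 Liv-/- replicate 1, 2 or 3 (adjusted p from 0.174 to 0.210, and from 0.0257 to 0.217 over all its alternatives), and also with a pseudocount of 1 (-0.95, adjusted p = 0.1255), with no filter, with the replicate block and in the two-sample test (q = 0.102). Without WT replicate 3 it was -0.82 and still called. The value in whole liver was 0.41 (adjusted p = 0.254), and 0.62 (adjusted p = 0.114) without Cdk1 Liv-/- replicate 3. Plaur encodes the urokinase receptor. Plaur (ENSMUSG00000046223) was at 0.75, 0.77 and 1.39 FPKM in WT whole liver and 3.20, 5.78 and 2.98 FPKM in Cdk1 Liv-/- whole liver. In hepatocytes Plaur was at 0.53, 0.39 and 2.03 FPKM in WT and 1.30, 0.68 and 1.11 FPKM in Cdk1 Liv-/-. Whole liver was separate between genotypes, with Cdk1 Liv-/- replicate 2 highest, and the hepatocyte groups overlapped. Plaur rose in whole liver with a log2 fold change of 1.58 (SE 0.282, adjusted p = 0.0112), 1.40 relative to the median. Its hepatocyte value was 0.19 (adjusted p = 0.806), and 0.65 (adjusted p = 0.160) without WT replicate 3, the only WT library there above any of Cdk1 Liv-/-.

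**Figure D4:**
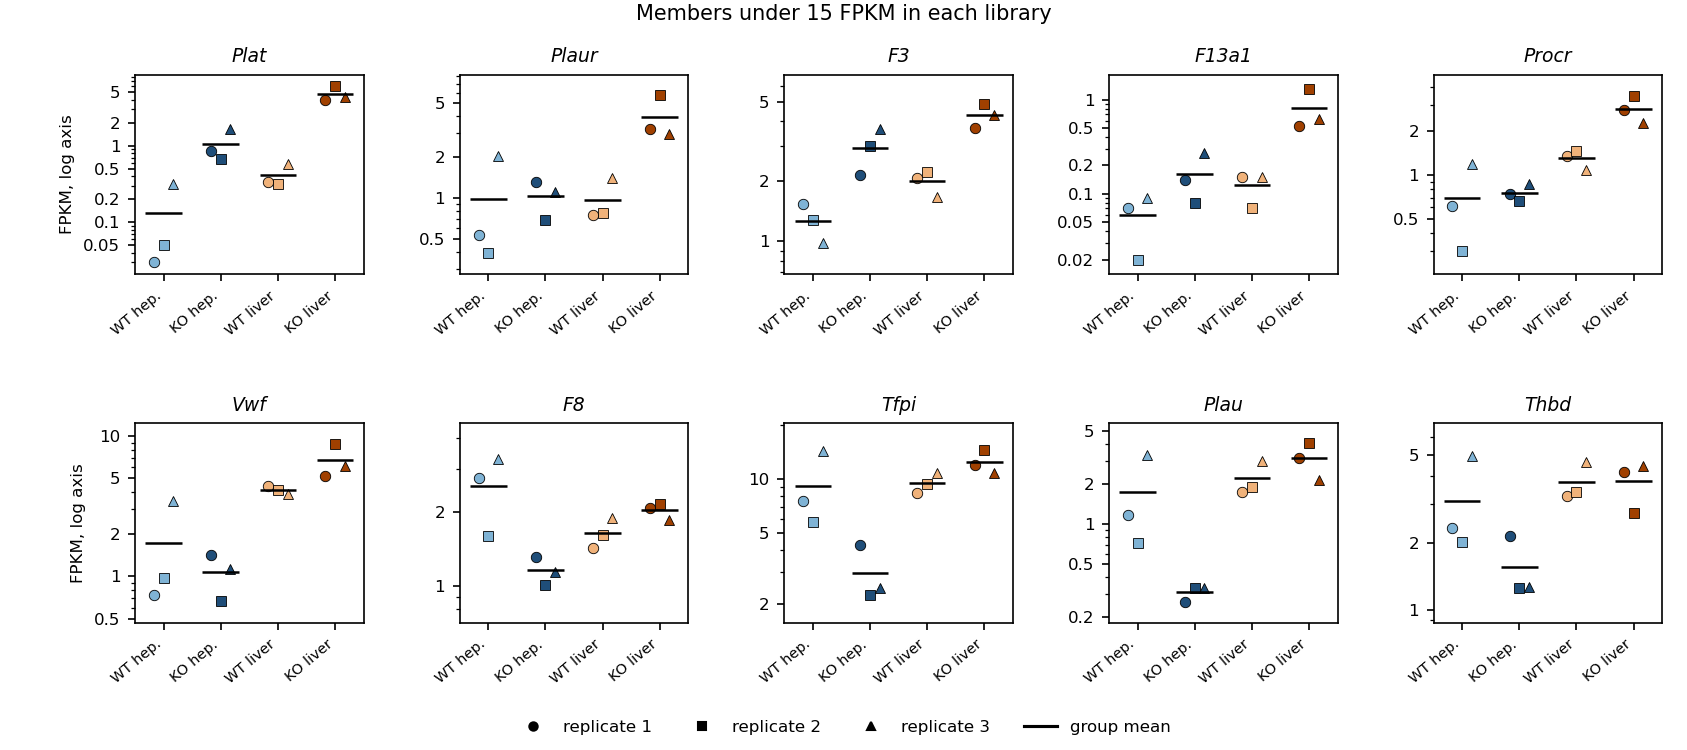
Each panel gives the FPKM of 1 weakly expressed member on a log axis in the 12 libraries (KO, Cdk1 Liv-/-), with replicates as symbols and the group mean as a line. Plat, Plaur, F3, F13a1, Procr and Vwf lie above WT in all Cdk1 Liv-/- whole liver libraries, and WT hepatocyte replicate 3 is the highest WT hepatocyte library for all of these but F3.

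Stellate cell and fibroblast markers, with Dcn as the most abundant gene, summed to 265, 266 and 290.1 FPKM in WT whole liver and 446, 453 and 460.2 FPKM in Cdk1 Liv-/- whole liver, 1.66 times WT (1.64 without Cdk1 Liv-/- replicate 3), and 4 of 8 rose. In hepatocytes they summed to 144, 93.0 and 268 FPKM in WT and 91.4, 85.3 and 71.5 FPKM in Cdk1 Liv-/-, 0.491 times WT, and 2 of 8 fell, or 0.697 times and none without WT replicate 3. The cholangiocyte markers, with Spp1 as the most abundant gene, summed to 19.6, 14.6 and 30.1 FPKM in WT hepatocytes and 66.8, 124 and 100.2 FPKM in Cdk1 Liv-/- hepatocytes, 4.53 times WT, and 4 of the 5 tested rose, or 5.67 times and 3 without WT replicate 3. In whole liver their sums were 59.4, 62.2 and 45.9 FPKM in WT and 270.4, 139 and 259.5 FPKM in Cdk1 Liv-/-, 3.99 times WT, and again 4 of 5 rose, or 3.66 times and 2 without Cdk1 Liv-/- replicate 3. Erythroid markers, with Hbb-bs as the most abundant gene, were at 0.245 times WT in hepatocytes (112, 81.6 and 399 against 48.6, 77.1 and 19.7 FPKM), where 2 of 7 fell, and 0.918 times in whole liver (796, 868 and 1532 against 777, 1204 and 954.5 FPKM), where 3 of 7 fell. Without WT hepatocyte replicate 3 the erythroid ratio was 0.50 in hepatocytes, where 1 of 7 fell, and without Cdk1 Liv-/- whole liver replicate 3 it was 0.930 in whole liver, where 2 fell. B, T and NK cell markers, with Cd79a as the most abundant gene, were at 0.271 times WT in hepatocytes (2.57, 1.71 and 5.08 against 1.02, 0.76 and 0.76 FPKM) and 0.707 times in whole liver (11.2, 11.6 and 10.96 against 5.9, 10.1 and 7.92 FPKM), and 2 of 7 fell in each. Without the same libraries these ratios were 0.396, where 2 fell, and 0.709, where none did. No list had a marker at 0 in a whole group, and the part of these cells in the results for Plat, Plau, Plaur and F3 was not tested.

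The 7 vitamin K dependent members (F2, F7, F9, F10, Proc, Pros1 and Proz) share a carboxylation step that lets them bind membranes. Of these, 1 rose and 4 fell in hepatocytes, where 12.1% of all tested genes rose and 6.61% fell, and 1 rose and 5 fell in whole liver, where 38.0% rose and 7.53% fell. Pros1 rose in both, but in whole liver not with median-ratio size factors (adjusted p = 0.924). The hepatocyte calls of F2, F7 and F10 ended without Cdk1 Liv-/- replicate 3, and also with the replicate block. Under both settings Proc alone of these members stayed lower in hepatocytes.

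An interaction term of genotype with compartment, fitted over all 12 libraries, tested whether a genotype difference in hepatocytes departed from that in whole liver. It was called for 7 members. The difference was higher in hepatocytes for 3 (F9, Pros1 and Cpb2), where 2.35% of all tested genes were called higher, and lower in hepatocytes for 4 (F8, Tfpi, Plat and Plau), where 7.49% of all tested genes were called lower. Both shares of the members are above those of all genes, on few members. With median-ratio size factors the median of all genes moved from -0.11 to 0.01, and 3 members were called higher and 2 lower, beside 3.17% and 2.83% of all genes. The counts without WT hepatocyte replicate 3 were 1 higher (Pros1) and 3 lower (F8, Tfpi and Plau), beside 1.29% and 3.99% of all genes. Without whole liver Cdk1 Liv-/- replicate 3 they were 1 higher (Pros1) and 2 lower (F8 and Tfpi), beside 1.26% and 3.01%. Without both of these libraries they were 0 higher and 2 lower by limma (Tfpi, -1.51, and Plau, -1.45), beside 0.673% and 1.93% of all genes. Over all libraries left out in turn the counts ranged from 0 to 3 higher and from 0 to 6 lower, while the shares of all genes ranged from 0.201% to 2.8% and from 0.247% to 12.8%. Both counts were 0 without WT whole liver replicate 1 (0.201% and 0.247% of all genes) or 2 (0.650% and 1.61%), and both were 1 without WT whole liver replicate 3 (0.984% and 1.90%) or WT hepatocyte replicate 1 (1.66% and 3.64%).

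Of these 7 members, Pros1 rose more in hepatocytes than in whole liver, with a difference of 0.59 (SE 0.127, adjusted p = 0.0495). This call ended without WT whole liver replicate 1 or 2 (adjusted p from 0.106 to 0.136, and from 0.0185 to 0.136 over all its alternatives). F9, above WT in hepatocytes and mostly below it in whole liver, differed by 0.47 (SE 0.131, adjusted p = 0.0770). Its call held without WT hepatocyte replicate 2, without Cdk1 Liv-/- hepatocyte replicate 1 or 2 or without Cdk1 Liv-/- whole liver replicate 1, and ended without each other library (adjusted p from 0.105 to 0.183, and from 0.0629 to 0.211 over all its alternatives). Cpb2 had a difference of 0.36 (SE 0.0979, adjusted p = 0.0708). The call for Cpb2 held without WT hepatocyte replicate 2, without Cdk1 Liv-/- hepatocyte replicate 1 or 2 or without Cdk1 Liv-/- whole liver replicate 2, and ended without each other library (adjusted p from 0.106 to 0.174, and from 0.0540 to 0.197 over all its alternatives). Tfpi, lower in hepatocytes and higher in whole liver, differed by -1.77 (SE 0.419, adjusted p = 0.0564), a call that ended without WT whole liver replicate 1 or 2 or without Cdk1 Liv-/- whole liver replicate 2 (adjusted p from 0.111 to 0.147, and from 0.0172 to 0.147 over all its alternatives). For F8 the difference was -1.08 (SE 0.274, adjusted p = 0.0634), and the call held without WT hepatocyte replicate 2 or 3, without Cdk1 Liv-/- hepatocyte replicate 1 or 2 or without Cdk1 Liv-/- whole liver replicate 1 or 3, and ended without each other library (adjusted p from 0.101 to 0.164, and from 0.00800 to 0.164 over all its alternatives). Plat rose in both compartments and its difference was -1.24 (SE 0.359, adjusted p = 0.0831), so it rose more in whole liver on this scale. With a pseudocount of 0.1 the difference was -0.82 and not called (adjusted p = 0.479), so it depends on the scale. The Plat call held without WT hepatocyte replicate 2, without Cdk1 Liv-/- hepatocyte replicate 3 or without Cdk1 Liv-/- whole liver replicate 1, and ended without each other library and with median-ratio size factors (adjusted p from 0.103 to 0.186, and from 0.0514 to 0.479 over all its alternatives). Plau differed by -1.71 (SE 0.514, adjusted p = 0.0884). The Plau call held without WT hepatocyte replicate 2 or 3, and ended without each other library and with median-ratio size factors (adjusted p from 0.107 to 0.198, and from 0.0259 to 0.198 over all its alternatives), and also with a pseudocount of 1 (-1.31, adjusted p = 0.102). With no filter on low values F9, F8, Plat and Plau were not called, and with the replicate block F9, Cpb2 and Plau were not.

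For the other members, being called in hepatocytes or whole liver alone shows no difference between the compartments. The interaction of Plaur was -1.40 (adjusted p = 0.149), that of F13a1 -0.81 (adjusted p = 0.113) and that of Procr -0.75 (adjusted p = 0.209). None of these was called. F3, which rose by a like amount in both compartments, had an interaction of 0.01 (SE 0.262). The same test called 6 of 8 sinusoidal endothelial markers lower, 3 of 8 Kupffer cell and macrophage markers, 3 of 8 stellate cell markers, 2 of 8 monocyte and neutrophil markers and 1 of 7 B, T and NK cell markers, and 2 of 8 hepatocyte markers higher. It called none of the 7 platelet, 5 cholangiocyte and 7 erythroid markers tested. Of all tested genes, it called 7.49% lower and 2.35% higher. Without both libraries that stood apart it called 2 endothelial and 1 monocyte and neutrophil marker lower and 1 hepatocyte marker higher. The part of these cells in the difference for F8, Tfpi, Plat and Plau was not tested.

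**Figure D5:**
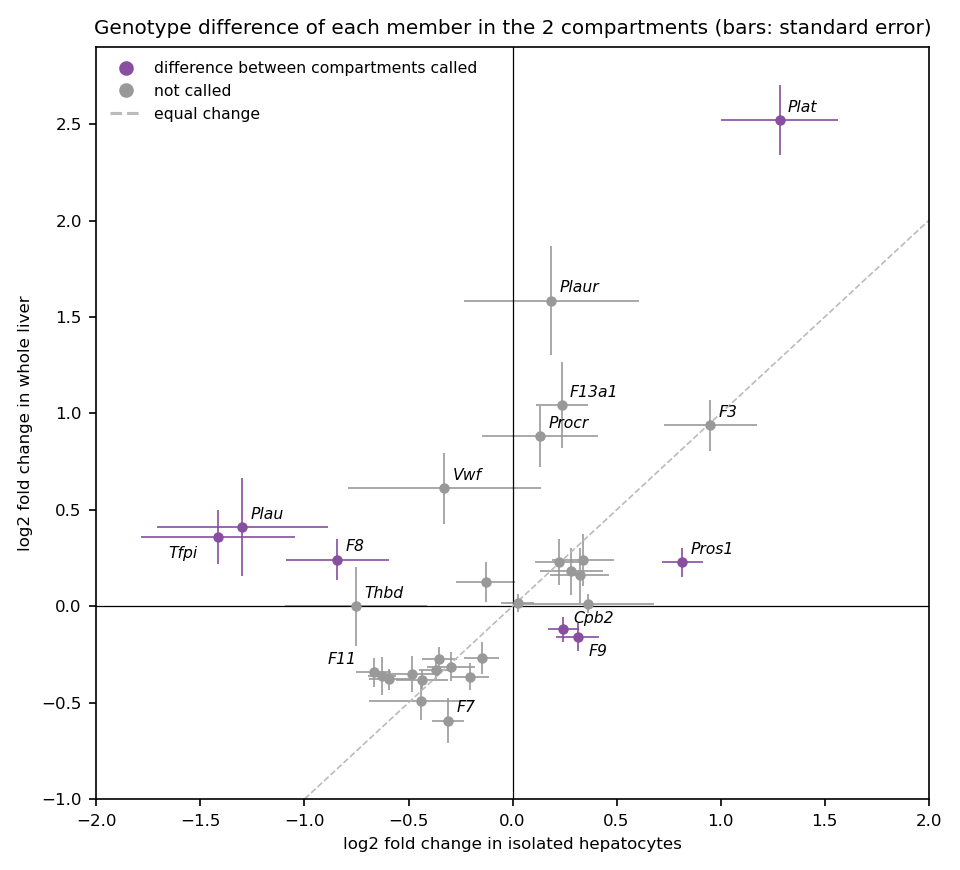
Each point is 1 of the 32 tested members, with its log2 fold change (Cdk1 Liv-/- against WT) in hepatocytes on the horizontal and in whole liver on the vertical axis, bars of 1 standard error, and a dashed line of equal change. The 7 members with a called difference between compartments are coloured, with Tfpi, Plau and F8 to the left, Plat at the top, and Pros1, F9 and Cpb2 below the line.

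Which members are higher in isolated hepatocytes than in whole liver was asked in the WT libraries, which this comparison shares with both genotype comparisons. By limma 0 members were called higher, where 0.104% of all tested genes were, and 0 lower, where 1.42% of all tested genes were. At an unadjusted p under 0.05 there were 4 (Klkb1 higher, and Vwf, F3 and Plat lower in hepatocytes) beside 18.8% of all genes, and a two-sample test with q-values also called 0. Without WT hepatocyte replicate 3, however, 1 member was higher in hepatocytes (Klkb1) and 5 were lower (Vwf, Procr, Thbd, Plat and Plau), beside 2.38% and 15.3% of all genes. Vwf was at 1.72 ± 1.49 FPKM in hepatocytes and 4.13 ± 0.291 FPKM in whole liver (SD, n = 3 each), with a log2 fold change of -1.26 (adjusted p = 0.216), and of -1.77 (adjusted p = 0.0259) without that library. Klkb1, with the limit on its identifier given above, had a value of 0.54 (adjusted p = 0.245), and of 0.70 (adjusted p = 0.0858) without it. For the abundant factors the WT compartments were close, with log2 fold changes of 0.02 for F2, -0.04 for Serpinc1, -0.01 for Plg and -0.03 for Fga. In this comparison limma called 3 of 5 cholangiocyte, 2 of 7 B, T and NK cell, 1 of 8 monocyte and neutrophil and 1 of 7 erythroid markers lower in hepatocytes, and none of the hepatocyte, endothelial, macrophage, stellate cell or platelet markers. Without WT hepatocyte replicate 3 it called 7 of 8 stellate cell, 7 of 8 monocyte and neutrophil, 6 of 7 B, T and NK cell, 4 of 5 cholangiocyte, 4 of 7 erythroid, 3 of 8 macrophage, 2 of 7 platelet and 1 of 8 endothelial markers lower, and no hepatocyte marker.

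Of 31 further genes of the pathway, 29 were tested. In hepatocytes 11 rose and 1 fell, where 12.1% and 6.61% of all genes did, and in whole liver 17 rose and 4 fell, where 38.0% and 7.53% did. With median-ratio size factors 9 rose and 1 fell in hepatocytes (9.80% and 8.09% of all genes), and 12 rose and 7 fell in whole liver (17.9% and 16.5%). S100a10, part of a receptor for plasminogen, was at 15.2, 10 and 19.7 FPKM in WT and 85.4, 92.3 and 91.0 FPKM in Cdk1 Liv-/- hepatocytes. In whole liver S100a10 was at 20.9, 22.1 and 23.4 FPKM in WT and 105, 117 and 115 FPKM in Cdk1 Liv-/-. All Cdk1 Liv-/- libraries lay far above WT, and the log2 fold change of S100a10 was 2.59 (SE 0.229, adjusted p = 0.00285) in hepatocytes and 2.32 (SE 0.0663, adjusted p = 8.68e-05) in whole liver. Its partner Anxa2 was at 37.7, 41.9 and 48.95 FPKM in WT and 119.5, 168 and 129 FPKM in Cdk1 Liv-/- whole liver, without overlap, and rose by 1.68 (adjusted p = 0.00199). A2m, a broad protease inhibitor, was at 1.39, 0.74 and 1.49 FPKM in WT and 5.70, 8.66 and 13.3 FPKM in Cdk1 Liv-/- hepatocytes, and at 0.97, 0.42 and 1.93 FPKM and 5.31, 16.0 and 6.33 FPKM in whole liver. It rose in both, with values of 2.46 (adjusted p = 0.00958) and 2.55 (adjusted p = 0.0160), and no library overlapped. Gas6, a relative of protein S, was at 6.81, 7.03 and 8.05 FPKM in WT and 27.4, 20.6 and 27.6 FPKM in Cdk1 Liv-/- hepatocytes, and rose by 1.71 (adjusted p = 0.00219). Fgl1, a fibrinogen-like protein of hepatocytes, was at 326, 333 and 378 FPKM in WT and 1039, 710.1 and 1056 FPKM in Cdk1 Liv-/- hepatocytes, and rose by 1.42 (adjusted p = 0.00678). The Gas6 and Fgl1 groups did not overlap. F2rl1, a receptor activated by proteases, was at 0.11, 0.29 and 0.21 FPKM in WT and 2.26, 2.73 and 2.49 FPKM in Cdk1 Liv-/- whole liver, and rose by 2.10 (adjusted p = 0.000471), again without overlap. In the other compartment Gas6 (1.32, adjusted p = 0.00150) and F2rl1 (adjusted p = 0.0245) also rose, and Fgl1 (0.84, adjusted p = 0.107) and Anxa2 (0.75, adjusted p = 0.206) were not called.

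Of the genes of vitamin K use and of secretion, Vkorc1, Ggcx and Lman1 fell in whole liver and Vkorc1l1 and Mcfd2 rose. Vkorc1, the reductase that recycles vitamin K, was at 168, 169 and 175 FPKM in WT and 114, 88.4 and 111 FPKM in Cdk1 Liv-/- hepatocytes. In whole liver Vkorc1 was at 159.8, 177 and 161 FPKM in WT and 132, 102 and 132 FPKM in Cdk1 Liv-/-. Its groups were separate in both compartments, and it fell by 0.72 (adjusted p = 0.0134) in hepatocytes and by 0.46 (adjusted p = 0.0310) in whole liver on the log2 scale. Ggcx, the carboxylase of the vitamin K dependent factors, was at 41.1, 38.7 and 38.8 FPKM in WT and 34.1, 31.5 and 30.4 FPKM in Cdk1 Liv-/- whole liver, with a log2 fold change of -0.30 (adjusted p = 0.0153). Lman1, which carries factors V and VIII out of the endoplasmic reticulum, was at 58.0, 57.9 and 53.2 FPKM in WT and 47.4, 46.5 and 46.0 FPKM in Cdk1 Liv-/- whole liver, with a log2 fold change of -0.27 (adjusted p = 0.0144). Both were separate between genotypes in whole liver, and neither was called in hepatocytes (-0.10 and -0.06). In 1 fit of all libraries Lman1 was not called (adjusted p = 0.104). Vkorc1l1, a relative of Vkorc1, and Mcfd2, the partner of Lman1, were also called higher in hepatocytes, and in neither compartment with median-ratio size factors. Mug2, a protease inhibitor whose near-identical paralog Mug1 makes the split of reads uncertain, was at 13.8, 10.4 and 10.8 FPKM in WT and 1.99, 2.13 and 3.02 FPKM in Cdk1 Liv-/- whole liver, and its log2 fold change was -2.08 (adjusted p = 0.00135). The Mug2 libraries of the genotypes did not overlap there. Mug1 was at 125, 113 and 117 FPKM in WT and 184, 123 and 174 FPKM in Cdk1 Liv-/- whole liver and was called higher (0.42, adjusted p = 0.0911), though not with median-ratio size factors. The sum of both paralogs was 139, 123 and 127 FPKM in WT and 186, 125 and 177 FPKM in Cdk1 Liv-/- whole liver, so it did not fall with Mug2. In hepatocytes Mug2 was at 22.4, 14.6 and 13.96 FPKM in WT and 29.9, 28.7 and 5.46 FPKM in Cdk1 Liv-/-, so 2 of 3 Cdk1 Liv-/- libraries lay above WT and 1 below, and it was not called (0.03, adjusted p = 0.984). Mug1 was at 193, 139 and 140 FPKM in WT and 631, 173 and 691 FPKM in Cdk1 Liv-/- hepatocytes. The sum of both paralogs there was 216, 153 and 154 FPKM in WT and 661, 201 and 697 FPKM in Cdk1 Liv-/-. The genotypes overlapped in Mug1 and in the sum, and Mug1 was not called in hepatocytes.

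Of 9 transcription factors of liver secretory genes, all of them tested, 3 rose and none fell in hepatocytes by limma (Hnf4a, Stat3 and Nr1h4), of which Stat3 alone did with median-ratio size factors, beside 12.1% and 6.61% of all tested genes (9.80% and 8.09% with these factors). In whole liver 3 rose (Cebpb, Stat3 and Onecut1) and 3 fell (Foxa2, Cebpa and Ppara), and with median-ratio size factors 1 rose (Onecut1) and 4 fell (these and Hnf4a), beside 38.0% and 7.53% of all tested genes (17.9% and 16.5% with these factors). The interaction was called higher in hepatocytes for 2 (Hnf4a and Cebpa), beside 2.35% of all tested genes. Hnf4a is also on the list of hepatocyte markers. Whether any of these factors acts on a member was not tested.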

How the data were processed

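Polyadenylated RNA (TruSeq Stranded, single-end reads of 75 bp) of 12 libraries, 3 in each of 4 groups, was sequenced, aligned by the authors to mm10 with STAR and quantified with RSEM 1.2.31. The deposited values are FPKM per gene and library, printed to 2 decimals and not normalized between libraries by the authors, who also ran FastQC. The annotation release is not given in the sources used here. Members and lists were chosen with earlier results of these data known. Genes were matched by Ensembl identifier to GENCODE M21 (46488 of 47069 found), and the table lists 82 symbols more than 1 time.

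In R 4.3.3, limma 3.58.1 was fitted to log2(FPKM + 0.5), using eBayes with a mean-variance trend, on genes with a mean of at least 0.1 FPKM, two-sided, with Benjamini-Hochberg adjustment over all tested genes and calls at an adjusted p of at most 0.1. Each comparison used its own groups, and the interaction used all 12 libraries. With 3 libraries against 3, the smallest p of an exact permutation test is 0.1. Alternatives were pseudocounts of 0.1 and 1, no filter or one at 1 FPKM, median-ratio size factors, equal sums, the replicate number as a block, a log2 fold change of at least 1, a two-sample test with q-values, 1 fit of all libraries, and each library left out. Where a group then holds fewer libraries, limma pools the spread over groups.

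Values in all libraries are given for called members with the largest and smallest fold changes (up to 6 each way in a genotype comparison), members called in the interaction, the fibrinogen chains, Serpinc1, Plg and F2, and for up to 4 further pathway genes each way. Other genes were named after their values were seen. Gene lists for 9 cell types, 9 transcription factors and 31 further pathway genes were written by hand. Of the plan, 2 genes and 1 promoter motif are not reported here. Depth was fitted on genes with transcripts of 300 to 900 bp at up to 0.5 FPKM. The code was tested on simulated data. Python 3.11.15, numpy 2.4.6, pandas 2.3.3 and matplotlib 3.10.9 were used for tables and figures. Read counts and protein sequences were not used here.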

Additional observations from a re-analysis of the deposited data

Results flagged for a closer look

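The genotype difference differed between hepatocytes and whole liver, by a test of the difference itself (the interaction in limma), for 7 members. On the log2(FPKM + 0.5) scale, as hepatocytes minus whole liver, the difference was 0.47 for F9, -1.08 for F8, 0.59 for Pros1, -1.77 for Tfpi, -1.24 for Plat, -1.71 for Plau and 0.36 for Cpb2. The marker sums that stand beside them, and the libraries whose omission ends each call, are given with the results, and no cause was tested.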

How the results depend on the processing

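The results for named genes were recomputed under 913 alternatives for 55 results, of which 751 kept their direction and their side of the threshold, 157 kept the direction and lost the call, 3 kept the direction and gained a call, and 2 turned. Those 2 were Fgb (-0.0601) and Fgg (-0.0406) in whole liver with median-ratio size factors, neither of them called in either direction by limma. This scaling lowers whole liver values of all genes in Cdk1 Liv-/- against WT, so the sign of these 2 values depends on the scaling. Which scaling is right was not tested.

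Member counts moved as follows from 4 higher and 11 lower in hepatocytes, 8 and 12 in whole liver, 0 and 0 between WT compartments, and 3 and 4 in the interaction. With no filter on low values, where more genes are tested, 1 was higher and 7 lower in hepatocytes (5.85% and 2.55% of all genes), 5 higher in whole liver (21.8%) and 1 lower in the interaction (2.42%). With median-ratio size factors 5 were higher in whole liver (17.9% of all genes) and 2 lower in the interaction (2.83%). With a log2 fold change of at least 1, 1 was higher and 2 lower in hepatocytes (4.20% and 2.17% of all genes), 3 higher and 0 lower in whole liver (4.59% and 1.00%), and 0 higher in the interaction (0.805%). With the replicate block 2 were higher and 3 lower in hepatocytes (6.03% and 2.35% of all genes), 7 higher and 12 lower in whole liver (32% and 5.99%), where F9 was lower and Serpinc1 no longer was, and 1 higher and 3 lower in the interaction (1.16% and 2.62%). The labels do not say whether the replicate numbers pair libraries. Deviations of libraries with the same number correlated at -0.32 to 0.24 across genes. Between WT hepatocytes and WT whole liver these values were 0.046, 0.074 and 0.239. Libraries with different numbers were not compared in this way, so the correlations cannot decide whether any libraries are paired.

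Leaving out each library in turn gave 1 to 3 higher and 3 to 7 lower in hepatocytes (6.65% to 9.33% and 2.31% to 7.04% of all genes), 5 to 7 higher and 9 to 13 lower in whole liver (25.9% to 35.6% and 4.94% to 7.45%), 0 to 1 higher and 0 to 5 lower between WT compartments (0.00575% to 2.38% and 0% to 15.3%), and 0 to 3 higher and 0 to 6 lower in the interaction (0.201% to 2.8% and 0.247% to 12.8%). Without both libraries that stood apart, an alternative chosen after seeing the data, the interaction had 0 higher and 2 lower (0.673% and 1.93% of all genes). Without WT hepatocyte replicate 3, also chosen after seeing the data, the ratio of summed monocyte and neutrophil markers in hepatocytes moved from 0.694 to 1.31, and the other marker ratios stayed on their side of 1. Pseudocounts of 0.1 and 1, a filter at 1 FPKM and equal sums kept every member count within 1.5 times its value, as did the two-sample test and 1 fit of all libraries in the 3 comparisons other than the interaction, for which they were not run. Depth limits F13a1 and Serpina5, which rest on few reads in several libraries, and Plat in WT hepatocytes (6 to 60 reads).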
